A study of Mus musculus with 8 samples.

Results

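Expression of 8 genes that damp MAP kinase signalling was followed in thalamic tissue of 8 mice. They are the dual-specificity phosphatase genes Dusp1, Dusp4, Dusp5 and Dusp6, the Sprouty genes Spry1, Spry2 and Spry4, and the Sprouty-related gene Spred1. The 8 genes were taken by symbol from the platform annotation. Each had 1 probe set with that symbol alone, and all 8 passed the brightness filter that left 15791 probe sets for 13524 genes. The set was chosen by levels on these same arrays: Dusp4, Dusp1 and Spry4 had stood out in needled mice against mice given MPTP alone. Values of the 8 genes in those contrasts are therefore given as a description, and no p of theirs is read. The needled arrays also enter the comparisons with control, and the MPTP arrays that of MPTP with control, so these are not independent of the choice either.

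The mice were adult male C57BL/6 animals, an inbred strain, taken at 6 weeks of age, in 4 groups of 2. Acupoint mice (MPTP and needling at GB34 and LR3, on the lower leg and foot) and non-acupoint mice (MPTP and needling at both hips) had 14 sessions 48 hr apart, each needle being turned for 15 sec. MPTP mice had the toxin without needling, and control mice had saline. MPTP, a neurotoxin that harms dopaminergic neurons, was injected into the abdomen at 20 mg/kg every 24 hr for 4 weeks in all groups except the controls. The labels say that needled mice were held by hand and do not say whether the other mice were, so needling and handling cannot be told apart. They do not give the time between the last session and dissection. RNA came from the thalamus of both sides of each mouse and was measured on Affymetrix whole-transcript arrays as log2 levels.

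MAP kinases such as ERK are switched on by a cascade that runs from receptor tyrosine kinases through Ras, Raf and MEK. The dual-specificity phosphatases remove phosphate from both activating residues of a MAP kinase. Sprouty and Spred proteins act further up, between the receptor, Ras and Raf. Many of these inhibitors are themselves transcribed in response to MAP kinase activity, which closes a negative feedback loop, and Dusp1 is also induced by stress, cyclic AMP and glucocorticoids.

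Promoter sequence was available for 6 of the 8 genes. Those of Dusp1, Dusp6 and Dusp5 are shown because Dusp1 and Dusp6 differed most evenly between needled mice and the rest, while Dusp5 was the least variable of the 8. They are the 250 bases before the gene start, 5′ to 3′, from RefSeq on build GRCm38.p6, with motif matches in capitals.
Dusp1 promoter, chr17:26508473-26508722, minus strand: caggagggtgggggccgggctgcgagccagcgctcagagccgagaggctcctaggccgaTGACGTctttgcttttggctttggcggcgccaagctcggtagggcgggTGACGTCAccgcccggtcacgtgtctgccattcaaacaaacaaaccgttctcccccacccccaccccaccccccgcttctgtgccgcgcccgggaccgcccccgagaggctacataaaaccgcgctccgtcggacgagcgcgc
Dusp6 promoter, chr10:99262981-99263230, plus strand: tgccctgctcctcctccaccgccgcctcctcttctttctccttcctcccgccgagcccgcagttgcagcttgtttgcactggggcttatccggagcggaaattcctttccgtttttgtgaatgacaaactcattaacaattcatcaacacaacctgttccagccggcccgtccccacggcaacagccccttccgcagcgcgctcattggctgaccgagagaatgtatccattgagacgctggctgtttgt
Dusp5 promoter, chr19:53528895-53529144, plus strand: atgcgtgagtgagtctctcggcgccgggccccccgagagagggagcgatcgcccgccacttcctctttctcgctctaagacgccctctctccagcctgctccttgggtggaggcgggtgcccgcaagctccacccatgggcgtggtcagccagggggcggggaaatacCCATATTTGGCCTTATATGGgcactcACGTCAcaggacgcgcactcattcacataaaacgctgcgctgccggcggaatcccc
The motifs searched, on both strands, were TGACGT (the core of the cyclic AMP response element), TGACG (part of that core, so each match of the longer motif is also one of the shorter), TGANTCA (AP-1), CCGGAA (ETS factors) and the CArG box of serum response factor. The Dusp1 window held 3 matches of TGACGT, the leftmost bases of which lie 191, 143 and 141 bases before the start, and the last 2 overlap as a palindrome. The Dusp5 window held 1 match of TGACGT, 56 bases before the start, and 2 CArG boxes side by side, 82 and 72 bases before it. The windows of Dusp6, Spry1, Spry2 and Spred1 held no match of any of these motifs. Over 32851 such windows of 27025 genes, 6.47% held TGACGT, 17.8% TGACG, 6.75% TGANTCA, 12% CCGGAA and 1.47% a CArG box. A match is a run of letters and says nothing of binding in these mice.

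Mouse 1 of the MPTP group and mouse 1 of the non-acupoint group gave arrays unlike the rest, called below the arrays that stood apart. They correlated with each other at r = 0.982 over the probe sets tested and with the other 6 at 0.905 to 0.936, while the other 6 correlated among themselves at 0.981 to 0.995. Their mean centred level of 14 cytosolic ribosome genes was -0.46 and -0.42, against 0.05 to 0.21 on the other 6 arrays. Values without these 2 arrays are given where they bear on a result. In that fit 1 array is left for MPTP and 1 for non-acupoint, and each is assumed to vary like the other groups. Thalamic neuron markers were measured for all 13 of the 13 genes chosen, among them Prkcd at a mean log2 level of 11.68 in MPTP mice and 10.82 in controls. The tissue was bulk, so that fewer cells of a type and less RNA per cell cannot be told apart. Array numbers limit the precision of every value, and p-values use 1 spread, taken within the 4 pairs of mice together.

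Laid side by side, the levels of the 8 genes fell into 3 outlines. Dusp4, Spry4 and Spred1 were lower in MPTP mice than in controls and stood nearer to control in both needled groups. Dusp1 and Dusp6 were alike in MPTP and control mice and higher in all 4 needled mice. With all 8 arrays Dusp5, Spry1 and Spry2 showed neither outline. Without the 2 arrays that stood apart this division changed. Spry2 was then 0.36 lower in MPTP mouse 2 than in controls, and 0.26 and 0.18 higher in acupoint and non-acupoint mice than in MPTP mouse 2. Dusp5 was then higher in all 3 needled mice than in the other 3, as were 17.1% of all probe sets. These outlines were drawn after the values were seen and carry no test. No difference of any of the 8 genes passed an adjusted p of 0.05 in the 4 comparisons other than those of needled with MPTP mice (limma with Benjamini-Hochberg adjustment over 15791 probe sets). Over all probe sets 0.0443% passed in non-acupoint against MPTP and 0% in the other 5. At an unadjusted p under 0.05 (limma), the share of all probe sets called was 1.37% in acupoint against MPTP, 1.56% in non-acupoint against MPTP, 1.89% in acupoint against non-acupoint, 5.62% in acupoint against control, 4.88% in non-acupoint against control and 5.29% in MPTP against control.

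**Figure D1:**
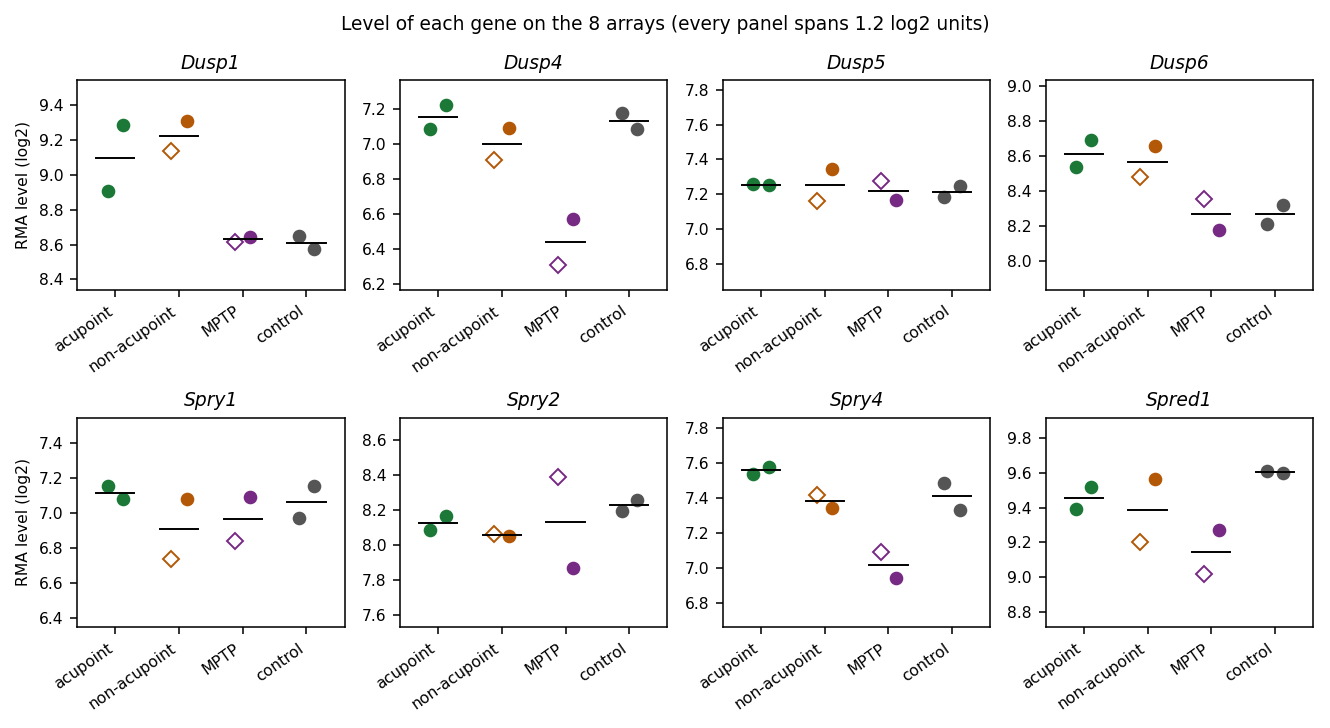
Log2 level (RMA) of each of the 8 genes on the 8 arrays, with a panel per gene and groups along the axis. Points are mice, open diamonds are the 2 arrays that stood apart, and the bar is the group mean (n = 2). Both MPTP mice lie lowest for Dusp4 and Spry4, and all 4 needled mice lie highest for Dusp1 and Dusp6.

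Dusp4 encodes a nuclear phosphatase that acts on ERK and on the stress-activated kinases. Its log2 level (probe set 10571312) was 7.09 and 7.22 in acupoint mice, 6.91 and 7.09 in non-acupoint mice, 6.31 and 6.57 in MPTP mice, and 7.18 and 7.09 in control mice. Both MPTP mice lay below all 6 others, and the other 3 groups overlapped. The order of group means was acupoint, control, non-acupoint, MPTP, and of these neighbours only non-acupoint and MPTP did not overlap. MPTP mice were at 61.8% of the control level, a log2 difference of -0.69 ± 0.15 (SE), with a 95% interval from -1.06 to -0.33. The adjusted p was 0.573 (limma). Without the 2 arrays that stood apart the difference was -0.56, with an adjusted p of 0.0948, and over all alternatives the adjusted p ran from 0.0915 to 1.00. Against MPTP mice, acupoint mice were 0.72 ± 0.15 higher (SE) and non-acupoint mice 0.56 ± 0.15 higher on the log2 scale, with no overlap in either.

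Spry4 encodes a Sprouty protein that restrains signalling from receptor tyrosine kinases to Ras. It stood (probe set 10458555) at 7.54 and 7.58 in acupoint mice, 7.42 and 7.34 in non-acupoint mice, 7.09 and 6.94 in MPTP mice, and 7.49 and 7.33 in control mice. Again both MPTP mice were the lowest of the 8, and the 2 acupoint mice were the highest. The group means ran acupoint, control, non-acupoint, MPTP. Of these neighbours control and non-acupoint overlapped, while acupoint and control lay apart by 0.05. MPTP mice differed from controls by -0.39 ± 0.13 (SE), or 76.1% of the control level, without passing (adjusted p = 0.714, limma). Without the 2 arrays that stood apart this was -0.47. Acupoint mice were 0.54 ± 0.13 and non-acupoint mice 0.36 ± 0.13 above MPTP mice (log2, SE).

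Spred1 encodes a membrane-bound inhibitor that brings neurofibromin, a Ras inactivator, to Ras. Its level (probe set 10474671) was 9.39 and 9.52 in acupoint mice, 9.21 and 9.56 in non-acupoint mice, 9.02 and 9.27 in MPTP mice, and 9.61 and 9.60 in control mice. All 6 injected mice lay below both controls. The order of group means was control, acupoint, non-acupoint, MPTP, and only control and acupoint did not overlap among these neighbours. The difference between MPTP and control mice was -0.46 ± 0.17 (SE; 72.8% of control; adjusted p = 0.714, limma). Within the MPTP and the non-acupoint group the lower mouse was the one whose array stood apart, and these 2 arrays were below the other 6 for Spred1 and for Spry1, as for 29.2% of all probe sets tested. Without them the Spred1 difference was -0.33 for MPTP, -0.04 for non-acupoint and -0.15 for acupoint mice against controls. With all 8 arrays those of the needled groups were -0.22 ± 0.17 for non-acupoint and -0.15 ± 0.17 for acupoint mice (SE).

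In MPTP against control, the 3 genes Dusp4, Spry4 and Spred1 were lower without overlap, 3 of 8, where 20.4% of all probe sets were lower without overlap. At an unadjusted p under 0.05 the same 3 genes were lower, against 1.96% of all probe sets (310 of 15791). None of the 8 were called at the adjusted threshold, where 0% of probe sets were called. The median log2 difference of the 8 was -0.10, beside -0.02 over all probe sets tested. Without MPTP mouse 1, or without both arrays that stood apart, it was -0.21. The 2 MPTP arrays lay below the other 6 in 2 of the 8 genes, Dusp4 and Spry4, and in 1.36% of all probe sets. This contrast shares its MPTP arrays with the contrasts in view when the genes were chosen, so it is not independent of that choice.

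Dusp1 encodes an inducible nuclear phosphatase that acts on p38, JNK and ERK and is itself an immediate early gene. Its level (probe set 10449284) was 8.91 and 9.28 in acupoint mice, 9.14 and 9.31 in non-acupoint mice, 8.62 and 8.64 in MPTP mice, and 8.65 and 8.57 in control mice. The 4 needled mice were all above the 4 that were not needled. The group means ran non-acupoint, acupoint, MPTP, control. The 2 needled groups overlapped, as did MPTP and control, and the lower acupoint mouse lay 0.27 above the higher MPTP mouse. Non-acupoint mice were at 153% and acupoint mice at 140% of the control level, log2 differences of 0.61 ± 0.16 and 0.49 ± 0.16 (SE). Neither passed over all probe sets (adjusted p = 0.705 and 0.695, limma). Without the 2 arrays that stood apart these differences were 0.70 and 0.49 (adjusted p = 0.102 and 0.0753, limma). With each array weighted by its estimated quality, the difference between acupoint and control mice had an adjusted p of 0.0280 (limma, with 0.0280 to 1.00 over the alternatives tried). Under those weights 1738 of 15791 probe sets passed in that comparison, against 0 without weights, and Dusp1 had been chosen on the same needled arrays. Without acupoint mouse 2 the difference between acupoint and control mice was 0.30, and without acupoint mouse 1 it was 0.67. Against MPTP mice, non-acupoint mice were 0.59 ± 0.16 higher and acupoint mice 0.47 ± 0.16 higher on the log2 scale.

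Dusp6 encodes the cytoplasmic phosphatase that acts on ERK with high selectivity. Levels (probe set 10366043) were 8.54 and 8.69 in acupoint mice, 8.48 and 8.66 in non-acupoint mice, 8.35 and 8.18 in MPTP mice, and 8.21 and 8.32 in control mice. As for Dusp1, every needled mouse was above every mouse that was not needled, with the closest values 8.48 in non-acupoint mouse 1 and 8.35 in MPTP mouse 1. The means ran acupoint, non-acupoint, control, MPTP, and only non-acupoint and control did not overlap among these neighbours. Acupoint mice were 0.35 ± 0.14 and non-acupoint mice 0.30 ± 0.14 above controls (log2, SE; adjusted p = 0.890 and 0.705, limma). MPTP mice stood at 99.9% of the control level, with a 95% interval of the log2 difference from -0.35 to 0.35. With array weights the difference between acupoint and control mice had an adjusted p of 0.0308 (limma, with 0.0308 to 1.00 over the alternatives), as 1 of the same 1738 probe sets.

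The pattern of 4 needled arrays above the 4 others was met by 2 of the 8 genes, Dusp1 and Dusp6, and by 0.944% of all probe sets tested (149 of 15791). The pattern contains the contrasts of needled with MPTP mice by which the genes were chosen, so nothing is read from these shares. No gene of the 8 had the opposite pattern, which 0.906% of probe sets had. Without the 2 arrays that stood apart, all 3 needled arrays were above the other 3 in Dusp1, Dusp5 and Dusp6 and in 17.1% of all probe sets. On the same 6 arrays MPTP mouse 2 was the lowest in 6 of the 8 genes (all but Dusp1 and Spry1), as in 19.5% of all probe sets. Across the 8 arrays the centred levels of Dusp1 and Dusp6 differed by a root mean square of 0.15 log2 units. Those of Dusp4 and Spry4 differed by 0.17 and those of Dusp4 and Spred1 by 0.16. Dusp1 and Dusp4 differed by 0.31. Pairs from different outlines lay as close, at 0.15 for Dusp5 and Dusp6 and 0.16 for Spry1 and Spred1. Spry4 and Spred1, of the same outline, differed by 0.19. The smallest distances were 0.13 for Dusp5 and Spry1 and 0.14 for Dusp5 and Spry2. These distances are smaller for genes that vary little, and they do not bear out the outlines.

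Set against MPTP alone, the values of the 8 genes had a median log2 difference of 0.33 in acupoint mice and 0.27 in non-acupoint mice, beside a median of 0.01 over all probe sets in each contrast. The groups did not overlap, with the needled mice higher, in 5 of the 8 genes for acupoint mice (Dusp1, Dusp4, Dusp6, Spry4 and Spred1), where 14.5% of all probe sets did the same. For non-acupoint mice it was 4 of the 8 (the same genes without Spred1), where the share was 5.67%. These contrasts were in view when the genes were chosen, and nothing is read from the counts. They share the MPTP arrays with each other and with MPTP against control, so a gene low on those arrays is high in both.

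**Figure D2:**
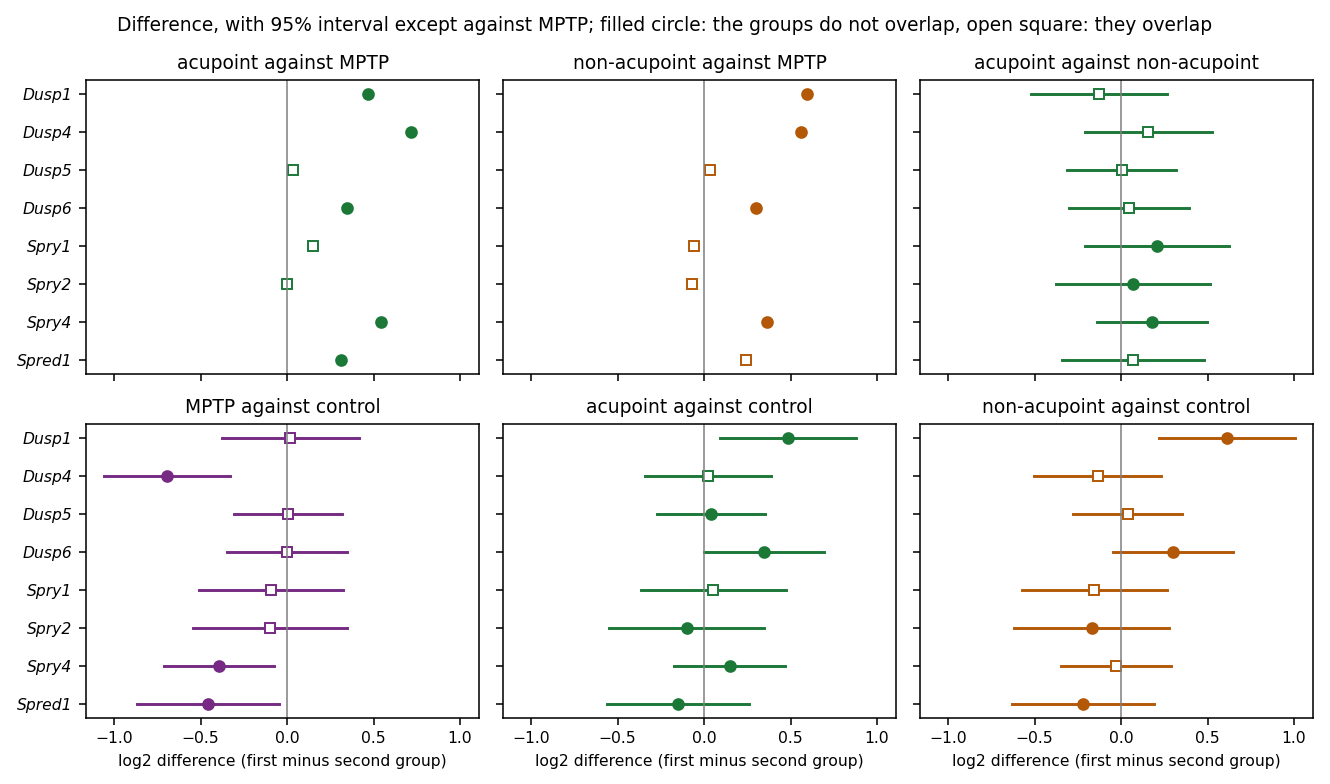
Log2 difference of each of the 8 genes in the 6 comparisons, the group named first minus the group named after it. Lines are 95% intervals from the limma fit to all 8 arrays and are not drawn for needled against MPTP mice. Filled circles mark genes whose groups of 2 do not overlap and open squares those that overlap. Dusp4, Spry4 and Spred1 lie left of 0 in MPTP against control, and Dusp1 lies right of 0 in both needled groups against control.

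With all 8 arrays Dusp5, Spry1 and Spry2 did not follow either outline. Dusp5, an ERK-selective phosphatase of the nucleus, lay between 7.16 and 7.34 on all 8 arrays (probe set 10463945), and only 1.73% of probe sets had a narrower range. Its values were 7.26 and 7.25 in acupoint mice, 7.16 and 7.34 in non-acupoint mice, 7.27 and 7.17 in MPTP mice, and 7.19 and 7.25 in control mice. Neighbours in the order of its group means overlapped throughout. Its 95% interval for MPTP against control reached from -0.31 to 0.32, an interval wider than its whole spread over the arrays.

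Spry1 (probe set 10491721) stood at 7.15 and 7.08 in acupoint mice, 6.74 and 7.08 in non-acupoint mice, 6.84 and 7.09 in MPTP mice, and 6.97 and 7.15 in control mice. Its 2 lowest values were those of the arrays that stood apart, and the other 6 lay between 6.97 and 7.15. Spry2 (probe set 10422227) had 8.09 and 8.16 in acupoint mice, 8.06 and 8.05 in non-acupoint mice, 8.39 and 7.87 in MPTP mice, and 8.20 and 8.26 in control mice. For Spry2 the MPTP group held both the highest and the lowest of the 8 arrays. Without the arrays that stood apart MPTP mouse 2 was 0.36 below the controls, against -0.10 ± 0.19 (SE) with all 8. Both genes encode Sprouty proteins of the same pathway as Spry4.

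The 2 sites of needling were compared directly. The difference of means does not involve the MPTP arrays, but its SE, interval and p do, through the spread shared by all groups. The needled arrays were also in view when the genes were chosen. Spry4, Spry1 and Spry2 were higher in acupoint than in non-acupoint mice without overlap, 3 of the 8 genes, where 13.8% of all probe sets did so. The log2 differences were 0.18 ± 0.13 for Spry4, 0.21 ± 0.17 for Spry1 and 0.07 ± 0.19 for Spry2 (SE), and the adjusted p of the 8 genes ran from 0.893 to 0.997 (limma). The lower acupoint mouse and the higher non-acupoint mouse were at 7.08 and 7.08 for Spry1, so the groups barely parted. Dusp1 was the only one of the 8 with a lower mean in acupoint mice (-0.13 ± 0.16). The 95% intervals were -0.21 to 0.52 for Dusp4, -0.52 to 0.27 for Dusp1 and -0.30 to 0.39 for Dusp6. The median of the 8 was 0.07, beside 0.01 over all probe sets, and it was -0.00182 without the 2 arrays that stood apart.

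The needled groups were also set against control, which holds MPTP and needling together. In acupoint mice 4 of the 8 genes were higher without overlap (Dusp1, Dusp5, Dusp6 and Spry4), where 30.4% of all probe sets were, and 2 were lower (Spry2 and Spred1), where 29.2% were. In non-acupoint mice 2 were higher (Dusp1 and Dusp6), where 25.5% of all probe sets were, and 2 were lower (Spry2 and Spred1), where 22.3% were. Dusp4 differed from control by 0.02 ± 0.15 in acupoint and -0.14 ± 0.15 in non-acupoint mice (log2, SE). At an unadjusted p under 0.05 Dusp1 alone of the 8 was higher in each comparison (limma), as were 3.29% of all probe sets in the acupoint and 2.68% in the non-acupoint comparison. These comparisons share the control arrays.

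Other genes of the pathway were described by lists, none of which held a gene past the adjusted threshold in the 6 comparisons. Of 8 other dual-specificity phosphatase genes 7 were tested, and their median log2 difference was -0.03 in acupoint and 0.01 in non-acupoint mice against MPTP, and 0.07 in MPTP mice against control. Their genes of smallest p in MPTP against control were Dusp14 (0.35 ± 0.17, SE), Dusp26 (-0.48 ± 0.34) and Dusp16 (0.49 ± 0.38). Dusp26 was 7.77 in MPTP mouse 1, whose array stood apart, 8.71 in MPTP mouse 2, and 8.72 and 8.73 in controls. Dusp16 was 8.45 and 7.46 in MPTP mice 1 and 2, and 7.50 and 7.43 in controls. Among 11 other Sprouty, Spred and receptor feedback genes, Spry3 had the smallest p there. Its level was 6.79 and 6.85 in acupoint mice, 6.50 and 7.08 in non-acupoint mice, 6.54 and 6.34 in MPTP mice, and 7.09 and 7.07 in control mice (MPTP against control -0.64 ± 0.21, SE; adjusted p = 0.714, limma). Like Dusp4 and Spry4, Spry3 was below both controls in both MPTP mice, though non-acupoint mouse 1 was below MPTP mouse 1. Spred2, a relative of Spred1, differed by -0.29 ± 0.16 and Lrig1, which limits growth factor receptors, by -0.51 ± 0.27 (SE). Lrig1 was 7.60 in MPTP mouse 1, whose array stood apart, 8.25 in MPTP mouse 2, and 8.48 and 8.40 in control mice.

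The kinases themselves did not share the outline of Dusp4 and Spry4. Of 20 genes of the ERK cascade 13 were tested, with medians of -0.02 in acupoint and 0.01 in non-acupoint mice against MPTP. In MPTP mice against control the median was 0.18, and 8 of 13 were higher, beside 47.8% of all probe sets. By array, the mean centred level of the 13 was 0.24 in MPTP mouse 1, whose array stood apart, and -0.11 in MPTP mouse 2. It was -0.13 and -0.14 in control mice. The adaptor gene Shc3 had the smallest p (0.97 ± 0.31, SE). The 11 tested genes of the JNK and p38 cascades had a median of 0.13 in MPTP mice against control, with Map3k5, a kinase of oxidative stress, at 0.68 ± 0.29 (SE). The 21 tested receptor and growth factor genes had a median of 0.09, with Igf1r, the IGF receptor gene, at 0.45 ± 0.19 (SE) and Bdnf at -0.54 ± 0.29. Bdnf was 5.81 in MPTP mouse 1, whose array stood apart, 6.58 in MPTP mouse 2, and 6.64 and 6.84 in control mice. Mean centred levels of the JNK and p38 list were 0.13 and -0.10 in MPTP mice 1 and 2, and -0.08 and -0.14 in controls. Those of the receptor list were 0.13 and -0.12 in MPTP mice 1 and 2, and -0.05 and -0.03 in controls.

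In a list of transcription genes counted as ERK targets, Elk1, Elk4 and Srf among them, 12 were tested. Of these, 4 were higher and 8 lower in MPTP mice than in controls (median -0.11), where 47.8% of all probe sets were higher. The cell cycle gene Ccnd1 differed by -0.49 ± 0.14 and the AP-1 gene Fosl2 by -0.67 ± 0.20 (SE; adjusted p = 0.714 for each, limma). Fosl2 stood at 6.73 and 6.70 in acupoint mice, 6.29 and 6.65 in non-acupoint mice, 6.07 and 6.54 in MPTP mice, and 6.96 and 6.99 in control mice. Etv1, a transcription factor gene of the same list, was 1.10 ± 0.61 in the other direction. Its level was 10.40 in MPTP mouse 1, whose array stood apart, 8.75 in MPTP mouse 2, and 8.48 and 8.48 in control mice. Of 18 immediate early genes tested, 7 were higher and 11 lower in MPTP mice than in controls (median -0.05), beside the same 47.8% higher. Among them Fos differed by -0.50 ± 0.23 and Klf4 by -0.57 ± 0.22 (SE). Fos was 6.79 and 6.98 in acupoint mice, 6.56 and 7.21 in non-acupoint mice, 6.57 and 6.51 in MPTP mice, and 7.13 and 6.94 in control mice, so that it overlapped between non-acupoint and MPTP mice. The 11 genes counted as CREB targets had a median of 0.18, with Per1 at 0.69 ± 0.23 (SE). Of these, Nr4a1 is also on the immediate early list and Pde10a is also on the striatal marker list. The mean centred level of the 11 was 0.37 in MPTP mouse 1, whose array stood apart, and -0.14 in MPTP mouse 2. In control mice it was -0.11 and -0.15.

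**Figure D3:**
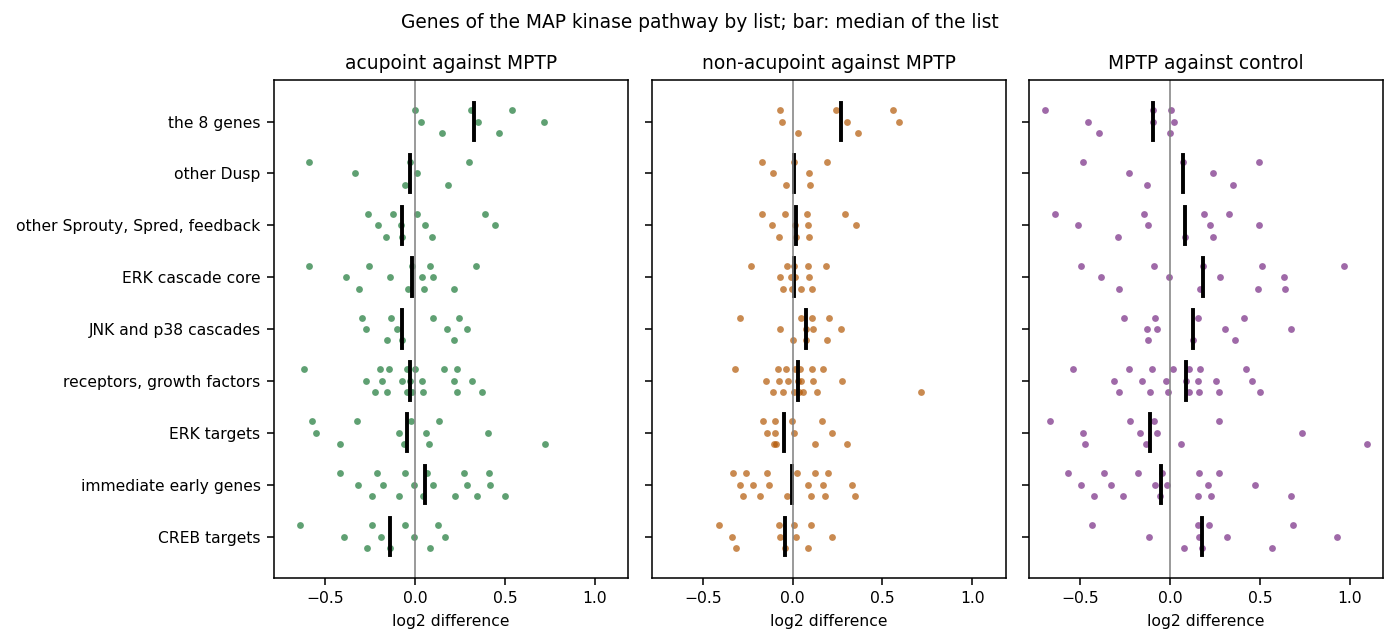
Log2 differences of the 8 genes and of 8 lists of pathway genes for each needled group against MPTP and for MPTP against control. Each point is a gene and the black bar is the median of the list. The medians of the 8 genes are 0.33 and 0.27 in the needled groups, and those of the other lists lie between -0.14 and 0.07 there.

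The genes whose centred levels lay closest to each of the 8 over the 8 arrays were named by the root mean square of the difference. Closest to Dusp4 were Slc38a2, an amino acid transporter gene (0.12), the histamine receptor gene Hrh1 (0.13) and Ndp, which encodes norrin (0.14), where the median over all genes was 0.35. Hrh1 was also among the closest to Spred1 (0.06), with Slc10a7 (0.06) and the amino acid transporter gene Slc1a4 (0.06). Hrh1 stood at 7.46 and 7.65 in acupoint mice, 7.37 and 7.64 in non-acupoint mice, 6.98 and 7.34 in MPTP mice, and 7.67 and 7.71 in control mice. Closest to Spry4 were Fem1c (0.09), Mrpl22 (0.10) and Dnase1l2 (0.10). Those closest to Dusp1 were the tyrosine phosphatase gene Ptpn1 (0.14), Eml1 (0.15) and the microRNA gene Mir380 (0.16), where the median was 0.36. For Dusp6 they were Ift172, Parp1 and Txlna (0.07 each). The distances of the nearest genes to Dusp5, Spry1 and Spry2 were 0.03 to 0.06, where the medians over all genes were 0.20, 0.22 and 0.24. For Spred1, Dusp6 and Spry4 the medians were 0.26, 0.27 and 0.29. Genes that vary little have smaller distances to most genes, so the distances do not rank likeness between the 8.

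The levels of marker lists were not the same in all groups. The mean centred log2 level of 13 thalamic neuron markers was 0.35 to 0.36 in acupoint mice, 0.08 to 0.24 in non-acupoint mice, -0.01 to 0.12 in MPTP mice and -0.64 to -0.50 in control mice. The 11 tested choroid plexus markers stood at 0.73 to 1.29 in acupoint mice, -1.78 to -1.71 in non-acupoint mice, 1.29 to 1.34 in MPTP mice and -0.60 to -0.56 in control mice. The lowest single level in that list was 4.75, under the mean of 5.63 that served as the brightness filter, so some of its markers were dim in the groups where they were low. The 10 astrocyte markers were at -0.01 to 0.02 in acupoint mice, -0.11 to 0.11 in non-acupoint mice, -0.09 to -0.07 in MPTP mice and 0.05 to 0.12 in control mice. The 9 tested hypothalamic markers were at -1.06 to 0.42 in the 6 injected mice and at 0.66 to 0.67 in control mice. The 8 tested striatal markers differed within groups, with 1.34 and -0.62 in MPTP mice 1 and 2 and -0.87 and 0.22 in acupoint mice. They were at 0.03 and -0.26 in non-acupoint mice and 0.05 and 0.11 in control mice. The part of these shifts in the levels of the 8 genes was not tested.

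**Figure D4:**
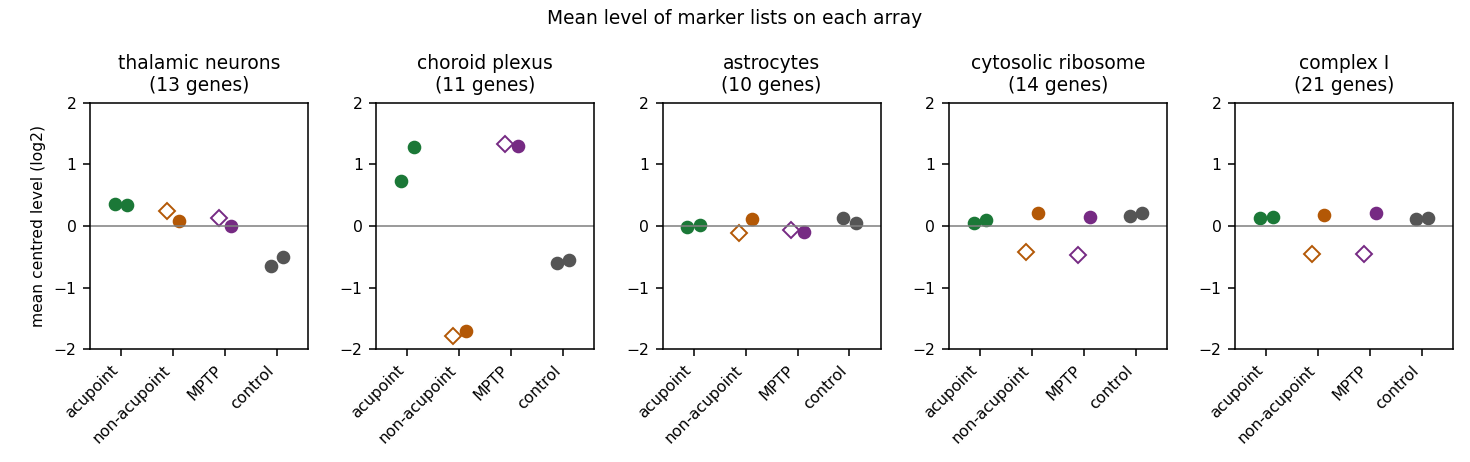
Mean centred log2 level of marker lists on each array, by group. Points are mice and open diamonds are the 2 arrays that stood apart. Choroid plexus markers are high in acupoint and MPTP mice and low in non-acupoint mice, and ribosome and complex I genes are low on the 2 arrays that stood apart.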

How the data were processed

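Affymetrix Expression Console and RMA made the deposited values, per the submitters' processing notes. The deposited values are log2 levels per probe set, as their range of 0.82 to 14.2 shows, with 1 column for each of the 8 mice and array medians of 6.18 to 6.29. The sources used here name no tool version. RMA draws arrays to a common distribution and compresses differences of dim probe sets. Of 35557 probe sets, 21789 had 1 gene symbol, 1621 several and 12147 none. The dimmest 40% (mean log2 under 5.63) and unnamed probe sets were left out, leaving 15791.

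Group means were fitted to all 8 arrays with limma 3.58.1 in R 4.3.3 and moderated with eBayes (4 residual and 2.53 prior degrees of freedom). Tests were two-sided, with Benjamini-Hochberg adjustment over all 15791 probe sets. Permuting 2 against 2 arrays exactly gives no p under 0.333, so this was not used. The fit was tested on simulated data. The 8 genes, the gene lists and the alternatives were chosen with earlier results of these data known. Alternatives covered normalization, filter, variance model, array weights, arrays fitted, mouse number, probe sets per gene and arrays left out. Genes of lists were named by the smallest p, 3 per list, in MPTP against control and in acupoint against non-acupoint. The text gives those that bear on the 8 genes. Levels by array of Fosl2, Fos, Spry3, Dusp26, Dusp16, Etv1, Bdnf and Lrig1 were added after their values were seen. Genes alike were the 3 with the smallest root mean square difference.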

Additional observations from a re-analysis of the deposited data

How the results depend on the processing

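The signs of the differences of Dusp4, Spry4 and Spred1 in MPTP against control were the same in all 19 alternatives run for each. So were those of Dusp1 and Dusp6 in both needled groups against control and against MPTP. A change of filter, variance model, replicate block or arrays of groups not compared leaves a difference of 2 group means as it was. Many of the 19 therefore could not change a sign. The differences from MPTP were also in view when the genes were chosen. Without 1 mouse at a time, the Dusp4 difference between MPTP and control mice ran from -0.83 to -0.56. Of 8 genes, 2 passed in acupoint against control with array weights (Dusp1 and Dusp6), where 1738 probe sets passed against 0 in the fit reported. Array weights gave 0 probe sets in non-acupoint against MPTP and 2 in acupoint against non-acupoint. With only the arrays compared, 1365 passed in acupoint against control and 0 in non-acupoint against MPTP, where 7 passed in the fit reported. For acupoint against control, fitting only the arrays compared equals leaving out the 2 arrays that stood apart. These are not separate alternatives there, and the spread comes from the acupoint and control pairs alone. No brightness filter gave 2 in acupoint against non-acupoint and 1 in non-acupoint against control. In acupoint against non-acupoint an intensity trend gave 2 and 1 probe set per gene gave 3. Without the 2 arrays that stood apart, the counts were 57 in MPTP against control, 3 in acupoint against MPTP, 23 in non-acupoint against MPTP, 21 in acupoint against non-acupoint, 1365 in acupoint against control and 52 in non-acupoint against control, and the median of the 8 genes in MPTP against control was -0.21. Leaving out each mouse in turn gave 0 to 5 probe sets in non-acupoint against MPTP, 0 to 1 in acupoint against non-acupoint and in both needled groups against control, and medians of the 8 genes of -0.21 to -0.043 in MPTP against control and 0.14 to 0.36 in non-acupoint against MPTP. The mouse number as a replicate block changed no call of the 8 genes (Dusp4 in MPTP against control, adjusted p = 0.535, limma). Differences between mouse 1 and mouse 2 correlated between groups at -0.28 to 0.82. The highest was between MPTP and non-acupoint mice, whose mouse 1 arrays both stood apart, and the others ran from -0.28 to 0.19. Whether the numbers pair the mice cannot be told from these values. Unadjusted calls in MPTP against control were 836, with 247 without control mouse 1 and 5573 without MPTP mouse 2. The cause of these shifts was not tested. Of 912 values of the 8 genes under these alternatives, 38 changed sign, in 19 of 48 differences. Many of the 912 could not differ from the fit reported, so 38 of 912 is no measure of stability. In MPTP against control a second quantile normalization gave -0.021 for Dusp1 and -0.00300 for Dusp5, and cyclic loess -0.000501 for Dusp5. Without the 2 arrays that stood apart the changed signs were Dusp5 -0.049 and Spry1 0.032 in MPTP against control, Spry2 0.26 in acupoint and 0.18 in non-acupoint against MPTP, Dusp5 -0.088, Dusp6 -0.042 and Spred1 -0.11 in acupoint against non-acupoint, and Spry1 0.016 in non-acupoint against control. Leaving out each mouse in turn, the log2 differences that crossed 0 in MPTP against control ran from -0.049 to 0.058 for Dusp5, -0.019 to 0.057 for Dusp1, -0.090 to 0.088 for Dusp6, -0.22 to 0.032 for Spry1 and -0.36 to 0.16 for Spry2. In acupoint against control they ran from -0.038 to 0.15 for Spry1 and -0.045 to 0.089 for Dusp4. In non-acupoint against control they ran from -0.11 to 0.047 for Spry4, -0.32 to 0.016 for Spry1 and -0.053 to 0.13 for Dusp5. In acupoint against MPTP they ran from -0.26 to 0.26 for Spry2 and -0.018 to 0.089 for Dusp5. In non-acupoint against MPTP they ran from -0.33 to 0.19 for Spry2, -0.058 to 0.12 for Dusp5 and -0.23 to 0.11 for Spry1. In acupoint against non-acupoint they ran from -0.31 to 0.060 for Dusp1, -0.042 to 0.14 for Dusp6, -0.088 to 0.093 for Dusp5 and -0.11 to 0.25 for Spred1.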
